A study of Mus musculus with 10 samples.

Results

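The genes described here are 9 components of adrenergic signalling in the left ventricle (LV), chosen by name from the 55401 genes of the tables with earlier results known. They were the receptors Adrb1, Adrb3, Adra1a and Adra1b, the receptor kinase Grk5, the G protein alpha subunits Gnai2 and Gnaq, and the adenylyl cyclases Adcy5 and Adcy6. LV RNA of 5 wild-type mice with neonatal ascending aorta constriction (nAAC) was compared with that of 5 wild-type mice with a sham operation, all 4 weeks old (n = 5 per group). In this model surgery in the newborn narrows the ascending aorta, so that the LV grows up against a raised pressure. Pups of both groups stayed with their mothers and carried no transgene or deletion, and the strain was C57BL/6. Females and males were placed in the groups at random, though the Xist levels given below were not balanced between these libraries. The libraries were made from whole LV tissue, so every level is a sum over all its cell types. The question addressed was whether RNA of the receptors and transducers of catecholamines differed between pressure-overloaded and sham LV.

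Adrenergic receptors bind adrenaline and noradrenaline at the cell surface. In the cardiomyocyte, beta receptors act through Gs on adenylyl cyclases 5 and 6, which make cyclic AMP (cAMP) and thereby activate protein kinase A (PKA), and contraction becomes stronger and faster. Gi subunits such as Gnai2 restrain the cyclases, alpha-1 receptors act through Gq and phospholipase C, and receptor kinases such as Grk5 phosphorylate occupied receptors so that arrestins bind and signalling ends. In long-standing cardiac stress this chain is known to be desensitized, with changes in the amounts of receptors, kinases and Gi.

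The libraries held an estimated 4.86 to 6.82 Gb of sequence in nAAC and 5.06 to 5.25 Gb in sham. FPKM, a level scaled for transcript length and library depth, is the unit of all levels below and allows genes of different length to be set side by side. Differences between groups are on the log2(FPKM + 1) scale, nAAC minus sham, which understates the change of low genes. A gene passed when its p from limma, adjusted by the Benjamini-Hochberg method over the 11867 genes whose mean FPKM reached 1, lay below 0.05, and a gene that passed with an absolute difference above 1 was counted as a differentially expressed gene (DEG). The median difference of all tested genes was 0.22 rather than 0. Under median-ratio scaling that median was -0.0022, so each value near 0.22 depends on how the libraries were scaled. Mitochondrial transcripts took 32.9 to 39.9% of the summed TPM, a unit like FPKM with a fixed sum per library, in nAAC and 33.7 to 49.8% in sham. Sham replicate 4 stood apart from the other sham libraries, at -45.2 on the second principal component against -15.1 to 21.1 for the other 9 libraries.

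Of the 8 members tested, 3 were higher in nAAC (Grk5, Gnai2 and Adcy5), 2 were lower (Adra1b and Adra1a), and Adrb1, Adcy6 and Gnaq did not pass. Among all genes tested, 31.7% passed, 27.1% as higher and 4.6% as lower. The nAAC and sham values did not overlap for 4 of the 8 members, against 22.3% of all genes, and 1 member, Adra1b, was a DEG, against 5.91%. The members were chosen with earlier results of these data known, so an excess over these shares is no independent support. The median difference of the tested members was 0.04. With the libraries rescaled by median ratios, 5 members again passed, but the split was 1 higher (Grk5) and 4 lower (Adra1b, Adra1a, Adrb1 and Adcy6). Of all 11829 genes tested under that scaling, 1540 passed as higher and 1431 as lower. The share of higher calls among all genes that passed thus fell from 85.5% to 51.8%. Adra1b and Grk5 were the members that passed in the same direction under all 20 alternative settings.

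**Figure D1:**
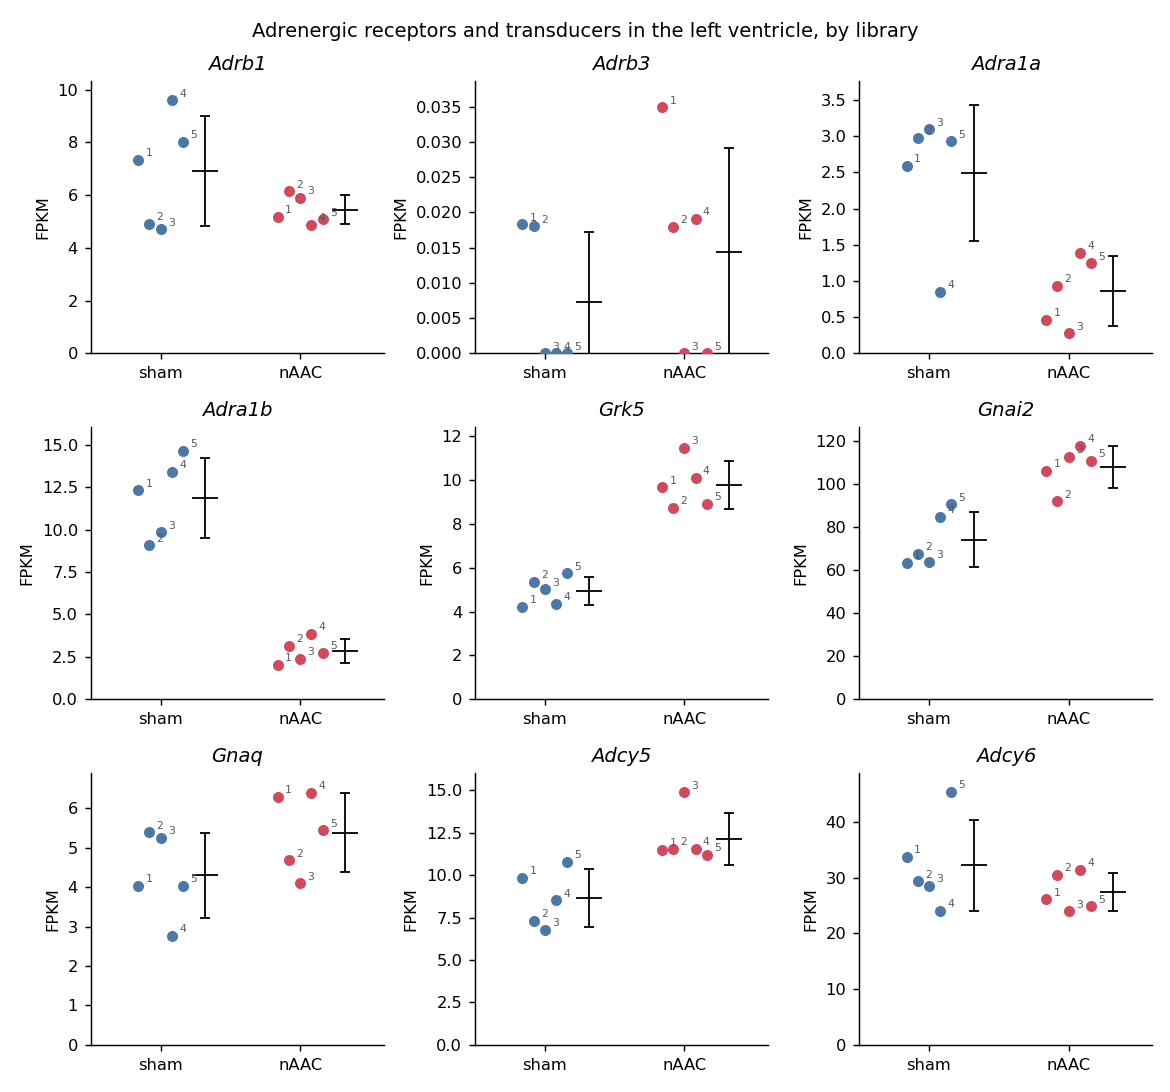
FPKM of the 9 members in each of 5 sham (blue) and 5 nAAC (red) libraries, with the replicate number beside each point and the mean and SD to the right, each panel on its own linear axis from 0. Adra1b, Grk5, Gnai2 and Adcy5 show no overlap between groups, Adra1a overlaps through sham replicate 4 at 0.846 FPKM, and Adrb3 stays at or under 0.0349 FPKM.

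Adra1b, the alpha-1B receptor, which signals through Gq, had the largest difference of the members and was lower in nAAC. Its FPKM was 2.01, 3.15, 2.38, 3.86 and 2.72 in nAAC replicates 1 to 5. In sham replicates 1 to 5 it was 12.3, 9.06, 9.85, 13.4 and 14.7. Every nAAC library lay below every sham library, and the lowest sham value was more than double the highest nAAC value. The means were 2.82 ± 0.716 in nAAC and 11.9 ± 2.36 in sham (SD, n = 5), a 4.20-fold higher level in sham. The difference was -1.75 (SE 0.16, 95% interval -2.09 to -1.41, limma adjusted p = 4.91e-06), and 0.211% of all tested genes had a lower value. Over the 20 alternatives it ranged from -2.08 to -1.67, with adjusted p between 1.03e-07 and 0.000136.

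Adra1b lies on the minus strand of chr11:43774606-43901210 (GRCm38). RefSeq gives it a pair of transcript starts that lie 64748 bases apart. The tables hold 1 value per gene, so transcripts from the 2 starts could not be told apart. The 250 bases before each start are shown because this was the member with the largest difference, and those before the single start of Grk5 because that was the other member that passed under every setting, in the opposite direction. Starts were found in the RefSeq table (GRCm38.p6) for 5 of the 9 members. Sequences read 5′ to 3′ on the gene's strand and end at the base before the start, and capitals mark matches, on either strand, to an AP-1 site (TGANTCA) or a GC box (GGGCGG).
Adra1b, upstream start, chr11:43901238-43901487, minus strand: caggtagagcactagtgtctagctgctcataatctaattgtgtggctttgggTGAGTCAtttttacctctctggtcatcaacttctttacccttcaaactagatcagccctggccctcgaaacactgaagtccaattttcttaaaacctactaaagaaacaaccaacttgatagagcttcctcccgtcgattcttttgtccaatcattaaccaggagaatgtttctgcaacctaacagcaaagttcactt
Adra1b, downstream start, chr11:43836490-43836739, minus strand: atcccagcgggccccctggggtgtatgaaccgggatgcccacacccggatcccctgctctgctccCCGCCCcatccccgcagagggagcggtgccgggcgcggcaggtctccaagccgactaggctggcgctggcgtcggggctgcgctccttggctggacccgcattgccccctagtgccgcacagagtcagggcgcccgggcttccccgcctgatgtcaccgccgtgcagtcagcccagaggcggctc
Grk5, chr19:60889499-60889748, plus strand: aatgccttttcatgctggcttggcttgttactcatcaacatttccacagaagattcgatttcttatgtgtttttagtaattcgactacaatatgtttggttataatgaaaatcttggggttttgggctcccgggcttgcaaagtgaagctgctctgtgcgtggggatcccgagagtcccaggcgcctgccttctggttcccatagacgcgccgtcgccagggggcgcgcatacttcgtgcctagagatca
The upstream Adra1b window held 1 AP-1 match, which ended 192 bases before the start, and was 41.6% GC. The downstream window was 72.8% GC and held 1 GC box match but no AP-1 match. The Grk5 window was 49.6% GC and held neither motif. A CRE half-site (TGACG) and an MCAT element (CATTCC) were searched as well and matched in none of the 3 windows. Of 32851 promoter windows of 250 bases, 6.75% held the AP-1 letters, 32.7% the GC box, 17.8% the CRE half-site and 12.6% the MCAT element. These matches are descriptions of letters and say nothing about binding.

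Adra1a, the alpha-1A receptor, which also couples to Gq, was lower in nAAC as well, with more spread. Its FPKM was 0.466, 0.935, 0.275, 1.39 and 1.25 in nAAC replicates 1 to 5. The sham values were 2.60, 2.98, 3.10, 0.846 and 2.93 in the same order. Sham replicate 4 fell among the nAAC libraries, and the other 4 sham libraries lay above all of them. The means were 0.862 ± 0.482 and 2.49 ± 0.937, a 2.89-fold higher level in sham, and the difference was -0.89 (SE 0.24, 95% interval -1.40 to -0.38, limma adjusted p = 0.0119). Adra1a reached the filter through its sham values, since its nAAC mean lay below 1 FPKM. Without sham replicate 4 the difference was -1.11 with an adjusted p of 0.00059. The call ended when the level of Xist was added to the model (-0.77, adjusted p = 0.0939) and when no filter on low genes was used (adjusted p = 0.0506). Xist, an RNA of the inactive X chromosome, reached at least 14.8 FPKM in every nAAC library but replicate 2, and in sham it was detected above 1 FPKM in replicates 4 (3.70) and 5 (10.6) alone. The remaining 4 libraries held no more than 0.0232 FPKM, so Xist was not balanced between the groups. Xist is made in female cells, and the sample labels used here give no sex. Sex was therefore probably unbalanced as well, and its part in the differences was not tested beyond the model with Xist. Adra1a lies on the plus strand of chr14:66635251-66771168.

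Adrb1, the main beta receptor of cardiomyocytes, did not pass. Its FPKM in nAAC replicates 1 to 5 was 5.19, 6.14, 5.90, 4.88 and 5.09. In sham replicates 1 to 5 it was 7.34, 4.91, 4.70, 9.59 and 8.02. All 5 nAAC libraries lay within the sham range, since sham replicates 2 and 3 were as low as nAAC and the other 3 sham libraries were higher than every nAAC library. The means were 5.44 ± 0.549 and 6.91 ± 2.09, and the difference was -0.26 (SE 0.17, 95% interval -0.62 to 0.10, limma adjusted p = 0.25). Adrb1 did pass as lower under median-ratio scaling (-0.50, adjusted p = 0.0311), upper-quartile scaling (-0.48, adjusted p = 0.0245) and removal of trends with GC content and length (-0.68, adjusted p = 0.000643). Removing those trends also centred the libraries, with a median difference of all genes of -0.0024, so here and below that setting includes a rescaling. Adrb1 lies at chr19:56722199-56733113, plus strand.

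Adrb3, the beta-3 receptor, known above all from fat cells and at low amounts in heart muscle, was near the lower end of what these tables can show. It was at 0.0349, 0.0179, 0, 0.0191 and 0 FPKM in nAAC and at 0.0183, 0.0180, 0, 0 and 0 FPKM in sham. It was listed at 0 in 5 of the 10 libraries, fell below the filter and has no fold change here (two-sided exact permutation test on log2 values, p = 0.444). Its locus on the minus strand of chr8:27225776-27250616 shares 839 exon bases with the antisense gene Gm45470, which also stayed at or under 0.0349 FPKM, and without knowledge of strand their reads cannot be told apart. Of the 8 fat cell markers, Adipoq, Lep and Retn were at 0 in all 5 nAAC libraries and at most 0.308, 0.0149 and 0.329 FPKM in sham. Plin1, Cidec, Cfd and Ucp1 reached at most 0.489 FPKM in nAAC and 2.38 FPKM in sham. Cidea stood apart from these, at 13.99 to 24.1 FPKM in nAAC and 4.81 to 17.5 in sham, and rose (0.97, limma adjusted p = 0.0178).

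Grk5, a kinase that phosphorylates occupied receptors and is also known to enter the nucleus of cardiomyocytes, was higher in nAAC. Its FPKM was 9.67, 8.74, 11.5, 10.1 and 8.92 in nAAC replicates 1 to 5 and 4.21, 5.36, 5.02, 4.34 and 5.75 in sham replicates 1 to 5. No values overlapped, and the groups were parted by the gap between 5.75 and 8.74. The means were 9.79 ± 1.10 and 4.94 ± 0.659, a 1.98-fold higher level in nAAC. The difference was 0.86 (SE 0.11, 95% interval 0.61 to 1.11, limma adjusted p = 0.000111), and 7.05% of all tested genes had a higher value. Over the 20 alternatives it ranged from 0.62 to 1.06, with adjusted p between 8.27e-05 and 0.00223. Grk5 spans chr19:60889749-61095968 on the plus strand. The gene Zfp950 lies within that span on the opposite strand but shares 0 exon bases with it.

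Gnai2, the most abundant member and an inhibitor of adenylyl cyclase as a Gi alpha subunit, was higher in nAAC as deposited. Its FPKM was 106, 92.1, 113, 118 and 111 in nAAC replicates 1 to 5. The sham values were 63.3, 67.7, 63.8, 85.0 and 90.7. The groups did not overlap, but sham replicate 5 came close to nAAC replicate 2, and sham replicates 4 and 5 were set off from the other 3. The means were 108 ± 9.83 and 74.1 ± 12.8, a 1.46-fold higher level in nAAC, with a difference of 0.55 (SE 0.14, 95% interval 0.25 to 0.85, limma adjusted p = 0.0101). The call ended under median-ratio scaling (0.27, adjusted p = 0.0944), upper-quartile scaling (0.29, adjusted p = 0.0647), removal of trends with GC content and length (0.17, adjusted p = 0.20) and with Xist as a covariate (0.33, adjusted p = 0.132). The pair of sham libraries with the higher Gnai2 were also those with Xist above 1 FPKM. The same pair had the lowest mitochondrial shares of the sham libraries, at 33.7 and 38.3% against 46.5 to 49.8%. Their median-ratio scaling factors were the highest in sham, at 0.955 and 1.04 against 0.850 to 0.867. The part of Xist, or of sex, in the difference was not tested beyond that model, and that of the mitochondrial share was not tested. Gnai2 lies on the minus strand of chr9:107614125-107635367.

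Gnaq, the Gq alpha subunit through which alpha-1 receptors reach phospholipase C, did not pass. FPKM was 6.29, 4.69, 4.10, 6.40 and 5.45 in nAAC and 4.04, 5.39, 5.25, 2.77 and 4.04 in sham, in replicate order. The groups overlapped, with 3 nAAC libraries above the sham range and 1 sham library, replicate 4, well below the rest. The means were 5.38 ± 0.999 and 4.30 ± 1.07 and the difference was 0.28 (SE 0.16, 95% interval -0.07 to 0.62, limma adjusted p = 0.196). It stayed on that side of the threshold in all 20 alternatives, with adjusted p from 0.0548 to 0.884. Gnaq lies on the plus strand of chr19:16132831-16387463. A processed pseudogene, Gm10819, sits within this span on the opposite strand at 12.3 FPKM in nAAC and 8.16 in sham, and shares 0 exon bases with Gnaq.

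Adcy5, one of the main cyclases of the adult heart, was higher in nAAC by a smaller step. Its FPKM was 11.5, 11.6, 14.9, 11.6 and 11.2 in nAAC replicates 1 to 5 and 9.84, 7.33, 6.77, 8.53 and 10.8 in sham replicates 1 to 5. The groups did not overlap, by the margin between 11.2 and 10.8, and nAAC replicate 3 was higher than the other nAAC libraries, which were nearly level. The means were 12.1 ± 1.54 and 8.65 ± 1.68, a 1.40-fold higher level in nAAC, with a difference of 0.45 (SE 0.14, 95% interval 0.16 to 0.75, limma adjusted p = 0.0229). The call ended under 8 of the 20 alternatives. Among them, the difference was 0.20 (adjusted p = 0.29) under median-ratio scaling, 0.21 (0.252) under upper-quartile scaling, 0.02 (0.896) once trends with GC content and length were removed, and 0.34 (0.18) with Xist as a covariate. Leaving out nAAC replicate 3, sham replicate 2 or sham replicate 3 gave adjusted p of 0.0609, 0.0551 and 0.064. Adcy5 lies at chr16:35154877-35305738, plus strand.

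Adcy6, the other main cyclase, was the most abundant member after Gnai2 and did not pass. It was at 26.1, 30.5, 23.9, 31.4 and 24.9 FPKM in nAAC and at 33.7, 29.4, 28.6, 24.0 and 45.4 FPKM in sham, in replicate order. The groups overlapped, with nAAC values between 23.9 and 31.4, and sham replicate 5 was the highest of all 10. The means were 27.4 ± 3.38 and 32.2 ± 8.15, and the difference was -0.20 (SE 0.16, 95% interval -0.55 to 0.15, limma adjusted p = 0.353). Under median-ratio scaling, upper-quartile scaling and removal of the trends Adcy6 passed as lower, at -0.47, -0.46 and -0.56 with adjusted p of 0.0261, 0.037 and 0.0013. It lies on the minus strand of chr15:98589973-98610076 and shares 605 exon bases with the antisense gene Gm29331, which was listed at 0 in every library.

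**Figure D2:**
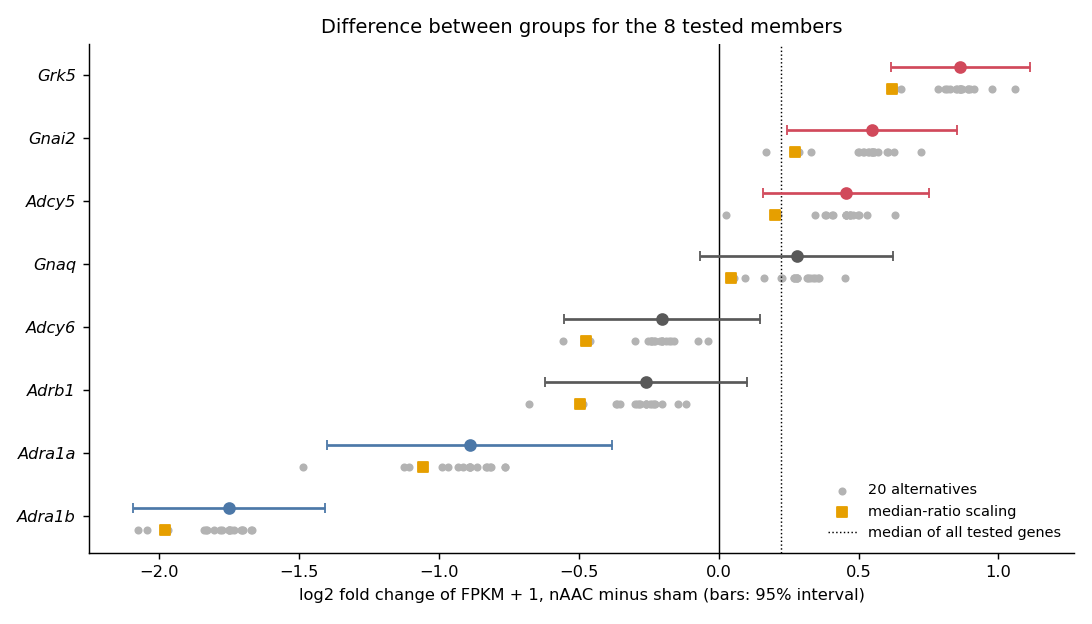
Difference between nAAC and sham in log2(FPKM + 1) for the 8 tested members, with 95% intervals, red for members that passed as higher, blue as lower and grey as neither. Grey dots below each member are the 20 alternative settings and the orange square is median-ratio scaling, and the dotted line is the median of all tested genes, 0.22. Adra1b at -1.75 and Grk5 at 0.86 keep clear of 0 throughout, whereas Gnai2 and Adcy5 move toward 0 with median-ratio scaling, to 0.27 and 0.20, and away from it with TPM, to 0.72 and 0.63.

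In order of level, sham LV had Gnai2 at the top, then Adcy6 and then Adra1b. Adcy5, Adrb1, Grk5, Gnaq and Adra1a followed, and from Adra1b down to Adra1a the ranges of neighbours in this order overlapped. Adrb3 was last and separate. In nAAC the order was Gnai2, Adcy6, Adcy5, Grk5, Adrb1, Gnaq, Adra1b, Adra1a and Adrb3, where only Adcy5 with Grk5 and Adrb1 with Gnaq overlapped. Adra1b therefore stood at rank 3 in sham and rank 7 in nAAC, and Grk5 at rank 6 and rank 4. In sham the level of Adra1b lay above that of Adrb1 in all 5 libraries, and in nAAC below it in all 5.

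Ratios of related genes were taken within each library, where the scaling between libraries enters only through the added 1. They were compared for 7 pairs of like function, as log2 of the ratio of FPKM + 1, with two-sided exact permutation tests adjusted over the 7 pairs. The smallest p that 5 against 5 libraries allow is 0.00794, and a single pair at that p is adjusted to 0.0556. No pair had an adjusted p below 0.05, and 4 of the 7 had an unadjusted p below 0.05. The nearest were Adcy5 to Adcy6, Grk5 to Grk2 and Adra1a to Adra1b, all at 0.0556.

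The ratio of Adcy5 to Adcy6 did not overlap between groups. On the log2 scale it was -1.12, -1.33, -0.65, -1.37 and -1.09 in nAAC replicates 1 to 5 and -1.68, -1.87, -1.93, -1.39 and -1.98 in sham replicates 1 to 5. Adcy6 was thus the more abundant cyclase in every library, by less in nAAC. The plain ratio was 0.452 ± 0.102 in nAAC and 0.274 ± 0.0506 in sham, and the log2 difference was 0.66 (exact permutation p = 0.00794, adjusted p = 0.0556). Leaving out any 1 library gave differences from 0.54 to 0.75.

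Grk5 relative to Grk2, the other main receptor kinase of the heart, was higher in nAAC in 4 of 5 libraries than in any sham library. The log2 ratio lay between -0.78 and -0.21 in nAAC and between -1.60 and -0.75 in sham, so the groups met at nAAC replicate 5 and sham replicate 2. The plain ratio was 0.702 ± 0.131 against 0.401 ± 0.106, with a log2 difference of 0.71 (exact permutation p = 0.0159, adjusted p = 0.0556). Grk2 itself was at 14.2 ± 2.08 FPKM in nAAC and 12.8 ± 2.38 in sham (limma adjusted p = 0.448). In both groups Grk2 was therefore the more abundant of these kinases on the mean.

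Adra1a relative to Adra1b was higher in nAAC on this scale, by 0.86 (exact permutation p = 0.0238, adjusted p = 0.0556). The log2 ratio was -1.41 to -0.73 in nAAC and -2.96 to -1.34 in sham, where sham replicate 4 was the lowest. Because Adra1a lies near 1 FPKM, this difference rests partly on the added 1, and with 0.1 added in its place it was 0.56 with a permutation p of 0.317. The plain ratio was 0.293 ± 0.129 in nAAC and 0.223 ± 0.107 in sham. Adra1b remained the more abundant of the alpha-1 receptors in every library of both groups.

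Other pairs had larger adjusted p. Gnai2 relative to Gnas, the Gs alpha subunit, differed by 0.26 (exact permutation p = 0.0397, adjusted p = 0.0694), and p reached 0.05 or more in 7 of the 10 runs that each left out 1 library. Gnas was at 422 ± 33.3 FPKM in nAAC and 345 ± 39.6 in sham (limma adjusted p = 0.11), so the Gs subunit was several times as abundant as Gnai2 throughout. Gnai2 relative to its relative Gnai3 differed by 0.33 (exact permutation p = 0.183, adjusted p = 0.231), or with p = 0.0238 without sham replicate 4. Gnaq relative to Gna11, the other widespread Gq-class subunit, differed by -0.15 (exact permutation p = 0.5, adjusted p = 0.5). Gna11 was the more abundant of the pair, at 18.3 ± 1.72 FPKM in nAAC and 13.6 ± 2.91 in sham.

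**Figure D3:**
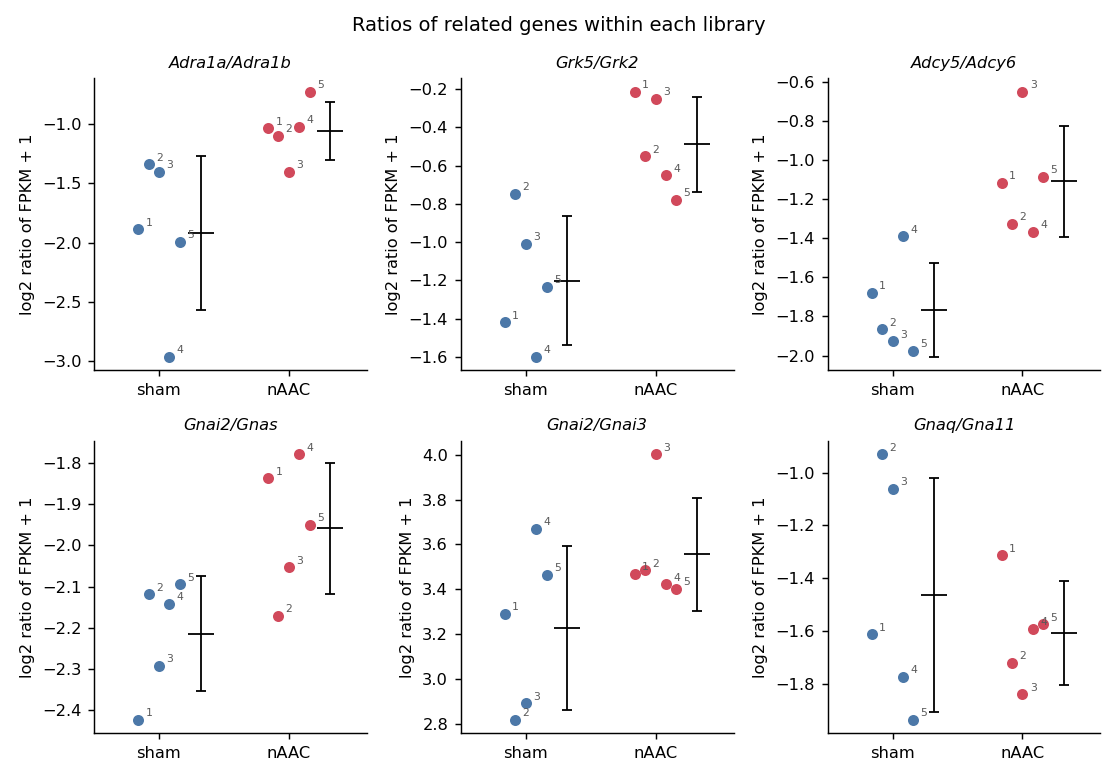
Log2 ratio of FPKM + 1 of 6 pairs of related genes in each library, sham in blue and nAAC in red, with replicate numbers and the mean and SD beside the points; the axes differ and do not start at 0. Adcy5/Adcy6 is the pair without overlap between groups, with the lowest nAAC value at -1.37 and the highest sham value at -1.39.

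The chain around the members was described with 8 lists of 107 other genes, of which 78 were tested. As deposited, 27 rose, 8 fell and 43 did not pass, with a median difference of 0.25 against 0.22 for all genes, and 24 had groups without overlap. Over all genes tested, 31.7% passed, 27.1% as higher and 4.6% as lower, and 22.3% had groups without overlap. With median-ratio scaling 16 of the 78 rose and 10 fell, while 1540 of all 11829 genes then tested rose and 1431 fell. The counts of each list below have these same backgrounds. The passing genes named below are at most the 4 of each list with the largest absolute difference, and Akap7 in addition. Of the 26 genes named by size of difference, 21 also passed under median-ratio scaling and none changed sign. They were picked by their differences in these same libraries, so that count is no independent support.

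Among the other adrenergic receptors, Adra1d was higher in nAAC (1.79 ± 0.452 against 0.987 ± 0.306 FPKM, difference 0.49, adjusted p = 0.0187), but not under median-ratio scaling (adjusted p = 0.0851) or once trends with GC content and length were removed (0.02, adjusted p = 0.953). Adra1d reached the filter through its nAAC values. The 3 alpha-2 receptor genes were below the filter. Of the 3 alpha-1 receptor genes, Adra1a and Adra1b were thus lower in nAAC and Adra1d higher as deposited. Adra1d had the lowest mean of the 3 in sham and lay between the others in nAAC.

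Of 10 tested GRKs, arrestins and RGS proteins, 3 rose and 2 fell. RGS proteins speed the return of G protein alpha subunits to their inactive state. Rgs2, which acts on Gq, was at 3.82 ± 0.380 FPKM in nAAC and 14.3 ± 6.12 in sham and fell by 1.58 on the log2 scale (adjusted p = 0.000161). Rgs6, a regulator of Gi-type subunits, also fell (-0.81, adjusted p = 0.00293). Arrb1, the first of the beta-arrestins, rose from 3.12 ± 0.499 to 6.13 ± 0.986 FPKM (0.79, adjusted p = 0.000575), and Rgs3 rose by 0.65 (adjusted p = 0.00131). All 4 kept their call under median-ratio scaling.

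Of 18 other G protein subunits tested, 8 rose as deposited, against 3 up and 1 down with median-ratio scaling. Gnao1, the Go alpha subunit, abundant in neurons and known in heart, had one of the largest differences of all lists. It was at 17.5 ± 1.33 FPKM in nAAC and 3.83 ± 0.723 in sham (1.95, adjusted p = 3.13e-07), where it lay below Gnai3 at 7.03 ± 1.35 and in nAAC above it, at 8.36 ± 1.64. Gnb3 rose by 1.32 (adjusted p = 1.22e-05) and Gng8 by 1.15 (adjusted p = 2.61e-05), a beta and a gamma subunit. Gng8 was at 1.90 ± 0.487 FPKM in nAAC and 0.293 ± 0.112 in sham. It reached the filter through its nAAC values and was at most 0.464 FPKM in sham. Gng11 rose by 0.54 (adjusted p = 0.0389) but did not pass under median-ratio scaling.

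Adcy7 and Adcy3 rose among the 4 other cyclases tested. Adcy7 was at 8.42 ± 1.47 FPKM in nAAC and 1.37 ± 0.147 in sham (1.98, adjusted p = 2.15e-07), the largest difference of the 78 tested genes as deposited. It kept its call under median-ratio scaling (1.77, adjusted p = 5.96e-07), where Maob and Rgs2 had larger absolute differences (-2.06 and -1.82). Adcy3 was lower in level, at 1.44 ± 0.287 and 0.661 ± 0.150 FPKM (0.55, adjusted p = 0.00326), and its call was lost once trends with GC content and length were removed (0.17, adjusted p = 0.232). Adcy3 reached the filter through its nAAC values. In sham, Adcy7 was thus far below Adcy5, at 8.65 FPKM, while in nAAC it came to 8.42 against 12.1 FPKM.

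Downstream of cAMP, 4 of 16 tested effectors rose and 1, the anchoring protein gene Akap7, fell, against 3 up and 2 down with median-ratio scaling. Popdc3, of the cAMP-binding Popeye family, rose by 1.01 (adjusted p = 2.9e-05). Prkar1a, a regulatory subunit of PKA, rose from 84.5 ± 12.1 to 152 ± 25.6 FPKM (0.84, adjusted p = 0.00108), whereas the catalytic subunit genes Prkaca and Prkacb, which are named here after their values were seen, did not pass (adjusted p = 0.629 and 0.609). Rapgef4, a cAMP-activated exchange factor, rose by 0.57 (adjusted p = 0.00153) and the anchoring protein gene Akap6 by 0.55 (adjusted p = 0.0191). Akap6 did not pass under median-ratio scaling (adjusted p = 0.244).

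Downstream of Gq, 5 of 14 tested effectors rose and 1 fell, against 2 up and 1 down with median-ratio scaling. The protein kinase C genes Prkcd (1.08, adjusted p = 4.45e-05) and Prkca (0.61, adjusted p = 0.00101) rose under both scalings. The phospholipase C genes Plce1 (0.51, adjusted p = 0.00732) and Plcb3 (0.43, adjusted p = 0.0324) rose as deposited but did not pass under median-ratio scaling.

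Of the PKA substrates of the cardiomyocyte, 2 of 10 rose and 2 fell, and these calls held under median-ratio scaling. Pln, phospholamban, which holds back the calcium pump of the sarcoplasmic reticulum until it is phosphorylated, went from 2516 ± 196 FPKM in sham to 1379.6 ± 58.7 in nAAC (-0.86, adjusted p = 0.00043). Tnni3, cardiac troponin I, fell by 0.82 (adjusted p = 0.0147). Hspb6, a small heat shock protein, rose by 1.19 (adjusted p = 4.11e-05), and Mybpc3, cardiac myosin-binding protein C, rose by 0.86 (adjusted p = 0.00254). The channel genes Ryr2 and Cacna1c, which are named here after their values were seen, did not pass (adjusted p = 0.86 and 0.995).

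Of the genes for catecholamine synthesis, uptake and breakdown, 4 of 11 were tested and all 4 passed, 2 in each direction and with the same calls under median-ratio scaling. Over all genes tested, 31.7% passed as deposited, and 2971 of 11829 under median-ratio scaling. With 4 genes tested, the count is not read as a result about the list. The monoamine oxidase genes, which encode breakdown enzymes, moved in opposite directions. Maob was at 2.08 ± 0.539 FPKM in nAAC and 10.1 ± 2.0 in sham (-1.84, adjusted p = 2.17e-06). Maoa rose by 0.77 (adjusted p = 0.000576), with means of 2.13 FPKM in nAAC and 0.826 in sham, the latter below the filter level. Maoa thus reached the filter through its nAAC values. Ddc, which makes dopamine, fell by 0.35 (adjusted p = 0.0476), a call that was lost with TPM (-0.25, adjusted p = 0.172) and with Xist as a covariate (adjusted p = 0.0646). Dbh, the noradrenaline-making enzyme, was below the filter and is named here after its values were seen, at 0.0373 to 0.157 FPKM in nAAC and 0.868 to 1.5 in sham (with no filter, -0.93, adjusted p = 0.000101). The nerve genes Th and Slc6a2, also below the filter, were at most 0.0538 FPKM in any library.

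**Figure D4:**
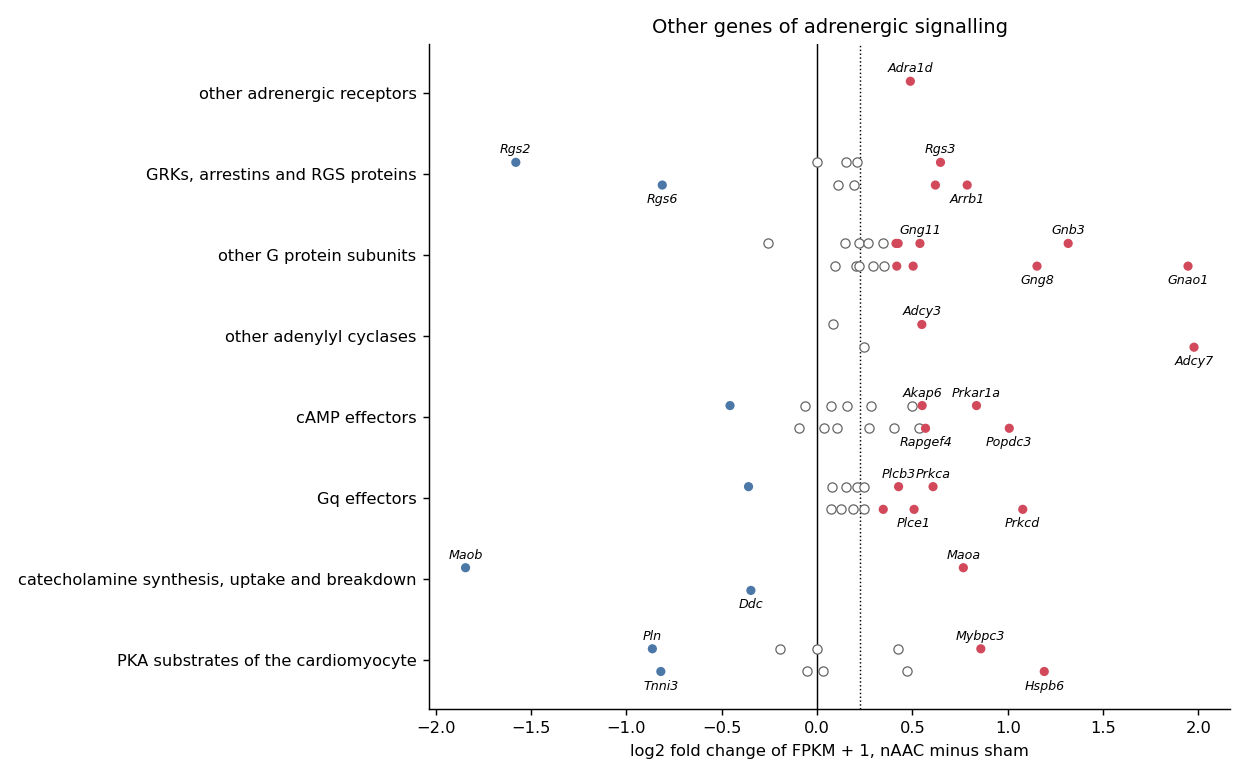
Difference between nAAC and sham in log2(FPKM + 1) for 76 tested genes of 8 lists of adrenergic signalling, 1 point per gene, red for passed as higher, blue for passed as lower and open for not passed, with up to 4 names per list. The dotted line is the median of all tested genes, 0.22, and most points lie around it, with Adcy7 at 1.98, Gnao1 at 1.95, Rgs2 at -1.58 and Maob at -1.84 the farthest from 0.

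Some markers of cell types differed between the groups as well. Their counts are as deposited, where the median difference of all tested genes was 0.22. Of all those genes, 27.1% passed as higher and 4.6% as lower. In whole tissue, fewer cells of a type and less RNA per cell cannot be told apart. Fibroblast markers rose for 6 of 7 genes, with summed levels of 515 to 914 FPKM in nAAC and 371 to 425 in sham. Dcn and Lum passed narrowly (limma adjusted p = 0.0459 and 0.0464), and Pdgfra did not pass (adjusted p = 0.24). Mural cell markers rose for 4 of 7 (Pdgfrb, Acta2, Myh11 and Tagln), with sums of 289 to 419.9 against 198 to 332 FPKM. The others did not go with them. Rgs5, the most abundant of the list, had a mean of 163 FPKM in both groups. Kcnj8 did not differ (limma adjusted p = 0.992), and Abcc9 was on the lower side (-0.53, adjusted p = 0.0825). Of the cardiomyocyte markers 2 of 10 rose (Actn2 and Mybpc3) and 2 fell (Tnni3 and Pln), with sums of 12531 to 19704 against 15058 to 29437 FPKM. Mybpc3, Tnni3 and Pln are the same genes as those given above among the PKA substrates. Endothelial markers rose for 2 of 6 (sums of 141 to 256 against 130.4 to 205 FPKM) and macrophage markers for 1 of 6 (113 to 222 against 76.6 to 170.3 FPKM). In lists this short, these counts are not set apart from the share over all genes. The 5 erythroid markers (sums of 3396 to 8802 against 2292 to 8661 FPKM) and the 3 tested atrial markers (2.03 to 227 against 3.05 to 44.7 FPKM) did not pass, with unadjusted limma p of 0.215 or more for each. Atrial sums differed widely within nAAC, at 134 and 227 FPKM in replicates 2 and 3 and 2.71 and 2.03 in replicates 1 and 5. With the atrial marker Myl7 as a covariate, 5 members passed, Adcy5 among them (adjusted p = 0.0426). The fat cell markers had 1 tested gene, Cidea, which rose (sums of the list 14.03 to 24.9 against 5.76 to 18.5 FPKM). Of the marker lists given here, the fibroblast list was the one whose sums did not overlap between groups. The part of these markers in the differences of the members was not tested.

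The genes whose log2 levels followed each member most closely over the 10 libraries were looked up among all tested genes. Pearson's r is given as a description, since the libraries share the group difference and their scaling. For Adra1b they were Fdft1, which encodes squalene synthase, and Crhr2, a receptor for urocortins (r = 0.99 for both), and for Grk5 AW011738 (r = 0.99) and Pam (r = 0.98). Adra1a was followed by Arhgap20 (r = 0.99) and Pik3r1 (r = 0.97). Gnai2 was followed by Tmem158 and Rassf8, Gnaq by Fem1b and Erbin, Adcy5 by Scaf1 and Mapk8ip3, Adrb1 by Mdh2 and Ldhb, and Adcy6 by Plin4 and Rbm24, with r between 0.93 and 0.99.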

How the data were processed

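LV libraries of 5 nAAC and 5 sham mice, made from Trizol-extracted total RNA with a NEBNext Ultra kit, were analysed by the groups and replicate numbers in the sample labels. The build given in the submitters' processing notes is mm10. The aligner, the quantification tool and the use of strand are not given in the sources used here. The authors deposited 1 gene table per library with a mean coverage per base, an FPKM (the coverage normalized for depth) and a TPM (FPKM rescaled to a fixed sum). None of these are counts, so no count model was used. Rows that share a gene ID were summed, and depth was taken from the ratio of FPKM to deposited coverage that was most frequent, an estimate that rests on 15.0 to 16.6% of the genes. Starts and ends matched GENCODE M21 (GRCm38) for 99.41% of 55141 shared genes.

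From the FPKM, log2(FPKM + 1) was fitted with limma 3.58.1 in R 4.3.3 (empirical Bayes with trend, no covariate) for the 11867 genes whose mean FPKM reached 1, with Benjamini-Hochberg adjustment over all of them, after the fit had been tested on simulated data. Exact permutation tests and figures were made with pandas 2.3.3, numpy 2.4.6 and matplotlib 3.10.9 in Python 3.11.15. The alternatives were other scalings, TPM, a pseudocount of 0.1, other filters, the replicate block, Xist as a covariate, removal of GC content and length trends (known for 99.94% of tested genes), leaving out each library and, chosen after seeing the data, Myl7 as a covariate. The members and all gene lists were chosen with earlier results of these data known. Named genes were the 9 members, their partners in the ratios, up to 4 passing genes of each list by absolute difference, and the 2 genes most correlated with each member. Akap7, some markers and some list genes that did not pass or were not tested are named as well. No interval for counting error could be given, since counts are not known. Results for some genes of the lists are not reported here.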

Additional observations from a re-analysis of the deposited data

Results flagged for a closer look

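Among 44 groups of 5 values examined (members and partner genes, ratios and library measures in each operation), 5 held a library whose gap to its nearest neighbour, as a share of the whole range of its group, exceeded Dixon's 95% critical value of 0.71, where about 2.2 are expected by chance at 1 in 20. Sham replicate 4 was low in Adra1a (gap share 0.836), at 0.846 FPKM against 2.60 to 3.10 in the other sham libraries. nAAC replicate 3 was high in Adcy5 (0.884), at 14.9 FPKM against 11.2 to 11.6, and in the ratio of Gnai2 to Gnai3 (0.863), at 4.00 on the log2 scale against 3.40 to 3.48. That library also had the highest sum of atrial markers, at 227 FPKM. nAAC replicate 4 was high in Gna11 (0.717), at 21.3 FPKM against 17.1 to 18.2. The estimated depth of nAAC replicate 1 was high (0.796), at 6.82 Gb against 4.86 to 5.26 Gb. No group effect could be compared between further conditions, since the series holds 1 contrast. What set these libraries apart was not tested.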

How the results depend on the processing

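No member changed sign under any of the 20 alternatives. With Xist as a covariate 2 members passed (Grk5 and Adra1b) in place of 5, and 1983 genes in all in place of 3757. TPM in place of FPKM gave 5687 genes in all, and the remaining alternatives gave 2860 to 4627. Members that passed numbered 4 or 5 under every other alternative, and 24 to 43 genes of the wider lists passed in place of 35. The share of higher calls among all genes was 85.5% as deposited, 51.8% with median-ratio scaling, 54.1% with upper-quartile scaling, 50.5% with GC content and length trends removed and 93.3% with TPM, and the median difference moved to 0.38 with TPM. Leaving out each library gave 4 to 5 members, 2860 to 4560 genes in all and 26 to 37 of the wider lists. The exact permutation p of Adra1a to Adra1b was 0.317 with a pseudocount of 0.1. Adrb3 was listed at 0 in 5 libraries, and the part of sequencing depth in these values was not tested. The cause of these changes was not tested.

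The groups share replicate numbers, but same-numbered libraries did not deviate together (r of their deviations from -0.32 to 0.19, with 1 of 5 pairs over 0.1 and 0 of 5 nAAC libraries closest to its own number), so the numbers were not taken as pairs. With the replicate block 4 members passed (Adcy5 at an adjusted p of 0.0534), 3426 genes in all and 32 of the wider lists. A paired sign-flip test of the ratios with 5 pairs cannot go below 0.0625.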
